A study of Mus musculus with 12 samples.

Results

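Fatty acid oxidation genes and targets of the nuclear receptor PPARA were described as a set of 38 listed genes in whole mouse kidney. A probe set of the array was taken where the platform annotation named exactly 1 gene and that gene was on the list, which gave 67 of 45101 probe sets for 37 genes; 1 listed gene is not analysed here. All 37 genes passed the filter on low signals and were tested among 14322 genes. Of the 67 probe sets, 63 passed that filter and 4 did not, with median signals of 9.38 to 27.1.

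Kidneys came from male mice 8 weeks old, either wild type of the strain C57BL/10 or TLR4 null, from C57BL/10ScNJ, a substrain without a functional Tlr4 gene, the innate immune receptor for bacterial endotoxin. All mice lost the right kidney. In the ischemic groups the left pedicle was clamped for 23 min and the kidney was taken after 4 h of reperfusion, and in the sham groups the clip was laid beneath the pedicle without closing it. Each of the 4 groups, wild-type sham, wild-type ischemic, TLR4 null sham and TLR4 null ischemic, held 3 kidneys on 1 array each, which the labels call biological replicates. TLR4 is missing in every cell of the null animals, the wild-type and null mice are separate strains and not littermates, and the label gives a single RNA integrity number of 9.5 with no value for each kidney.

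Mitochondrial beta-oxidation shortens fatty acids that enter the organelle through the carnitine shuttle, in rounds of an acyl-CoA dehydrogenase, a hydratase, a second dehydrogenase and a thiolase, and its electrons reach the respiratory chain partly through the electron transfer flavoprotein. Peroxisomes run a parallel pathway for very long and branched chains. PPARA, together with its partner RXR, switches on genes of both pathways, and the proximal tubule, which makes up much of the kidney cortex, relies on fatty acids as fuel.

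The genotype labels were checked on Tlr4 itself, which had 4 probe sets. The one with the largest difference read between 65.6 and 120 on the wild-type arrays and between 0.901 and 3.38 on the TLR4 null arrays, a difference of -2.43 ± 0.32 in sham and -2.81 ± 0.32 in ischemic kidneys (limma over all probe sets, adjusted p = 0.00719 and 0.00218). A second past the filter differed by -1.01 ± 0.44 and -1.21 ± 0.44 without passing (adjusted p = 0.556 and 0.333), and 2 others did not pass the filter. The files do not show where the deletion falls relative to these probes, so the check rests on a probe set picked for its difference. Median signals per array were 61.2 to 77.4, and pairs of arrays within a group had Pearson's r of 0.963 to 0.979 over genes.

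The 37 genes moved almost all in 1 direction. After ischemia 24 genes fell and 1, Plin2, rose in wild-type kidneys, and 32 fell and 1, again Plin2, rose in TLR4 null kidneys (limma, adjusted p under 0.05). Averaged over both genotypes, 36 genes fell and 1 rose, so that each of the 37 passed. The falls were mostly moderate, with a median of -0.36 on the log2 scale in wild type and -0.49 in TLR4 null kidneys, beside -0.09 and -0.07 over all genes. Here and below a change is a difference of mean log2(signal + 15) between groups of 3 arrays, with the standard error (SE) of the model, and adjusted p is by limma with Benjamini-Hochberg adjustment over 14322 genes. In bulk tissue, fewer cells of a type and less RNA per cell cannot be told apart.

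These counts stand beside the share of all genes that passed. In wild type 19.6% of the 14322 genes were called, 10.5% lower and 9.17% higher, in TLR4 null kidneys 21.6%, 11.7% lower and 9.86% higher, and in the mean of both genotypes 33.1%, 19.4% lower and 13.7% higher. Those shares include dim genes, whereas the probe sets used for the 37 genes read at least 402 on every array. A filter at the 60th percentile kept all 37. It gave 14.6% of genes called lower in wild type, 16% in TLR4 null kidneys and 25.2% in the mean of both. Of the 37 genes, 22 were called lower in both genotypes, against 6.51% of all genes, and 1 was called higher in both, against 6.98%. A further 2 were called in wild type alone, 10 in TLR4 null kidneys alone and 2 in neither, Acads and Acaa1a. The 3 sham signals lay wholly above the 3 ischemic signals for 30 genes in wild type, against 23.7% of all genes, and for 34 in TLR4 null kidneys, against 20.1%. Scaling the arrays to equal medians lowered the wild-type count of called falls from 24 to 13, with 4.65% of all genes called lower, and moved the share of rises among all called genes from 46.7% to 65.9%. The falls lost were those of Cpt1a, Crat, Acsm3, Acadvl, Acadl, Etfb, Hadhb, Eci1, Decr1, Abcd3 and Ehhadh. In TLR4 null kidneys that scaling ended the falls of Crat, Acadl, Etfa, Etfb, Hadha, Hadh, Acaa2, Acat1 and Aldh3a2 (adjusted p = 0.0505 to 0.172). There 7.21% of all genes were called lower, and rises made up 53.3% of all called genes beside 45.7%. Under that scaling the mean of both genotypes gave 26 falls, with 12.2% of all genes called lower. Rises made up 52.4% of all called genes there, beside 41.3%. In each of these comparisons 36 of the 37 estimates stayed below 0. Quantile normalization instead added wild-type falls of Acadm, Etfa, Hadh, Acaa2, Acat1 and Scp2 (adjusted p = 0.000216 to 0.0356). There 11.7% of all genes were called lower in wild type. These genes were among the 10 called in TLR4 null kidneys alone without that step, so this division depended on the scaling.

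**Figure D1:**
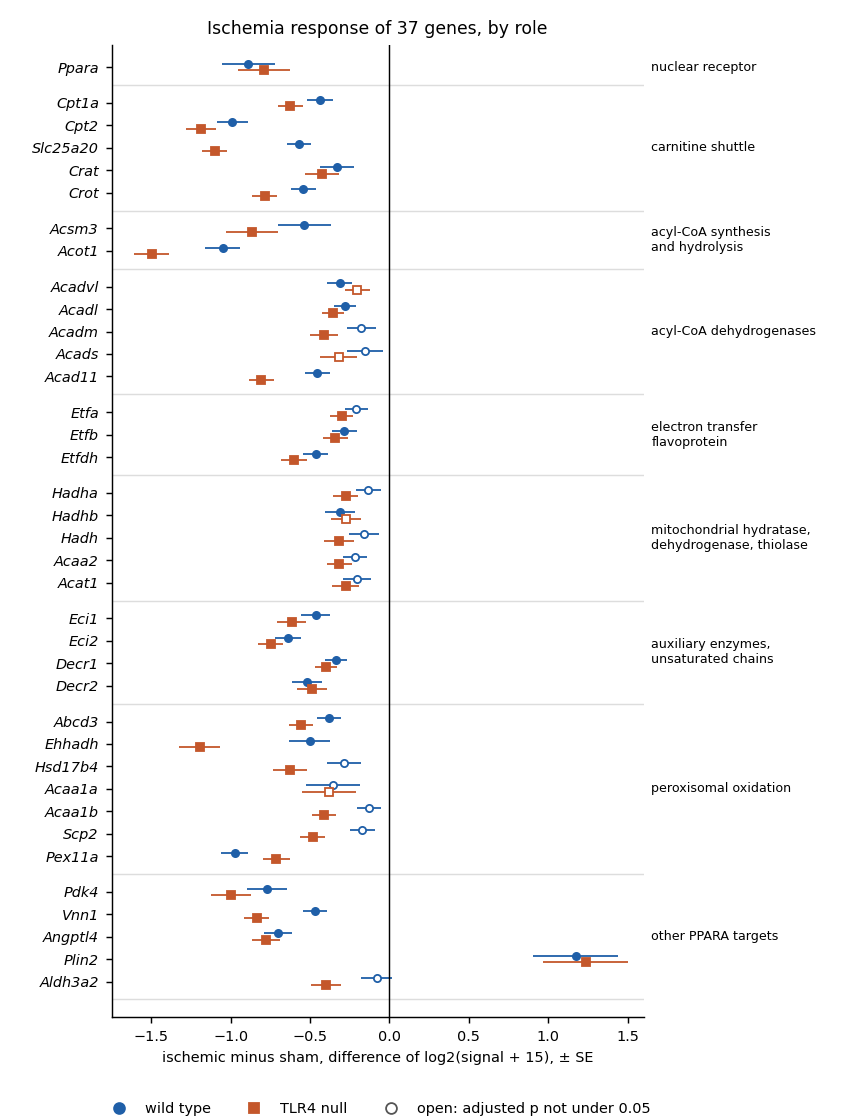
Change after ischemia for the 37 genes, ordered by role, as the difference of log2(signal + 15) between 3 ischemic and 3 sham kidneys with its SE, for wild type (blue circles) and TLR4 null (orange squares). Filled symbols passed an adjusted p of 0.05; 36 genes lie left of 0 in both genotypes and Plin2 lies right of 0.

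Promoters of the genes were read where the sequence table held them, as windows of 300 bases from 250 before to 50 after an annotated start (RefSeq, GRCm38.p6). It held 31 windows of 30 genes. The full PPARA-RXR element, 2 copies of AGGTCA in the same direction with 1 base between them (AGGTCANAGGTCA, either strand), occurred in 0 of the 31 windows and in 0.04% of 32851 windows in all. A single copy of AGGTCA, on either strand, occurred in 5 windows, those of Cpt1a, Acadm, Acadvl, Scp2 and Plin2, beside 16.3% of all windows. A looser element that leaves 1 base of each copy free, AGGNCANAGGNCA, occurred in 0 of 31 and in 0.381% of all. These windows cover a short stretch only, and a match is a description of letters, not of binding. The windows of Cpt1a, the gate of the carnitine shuttle, and of Plin2, the gene that rose, are shown with the single copy in capitals, read here as its reverse complement TGACCT. That of Cpt1a is chr19:3323051-3323350 on the plus strand and that of Plin2 is chr4:86670010-86670309 on the minus strand.
Cpt1a: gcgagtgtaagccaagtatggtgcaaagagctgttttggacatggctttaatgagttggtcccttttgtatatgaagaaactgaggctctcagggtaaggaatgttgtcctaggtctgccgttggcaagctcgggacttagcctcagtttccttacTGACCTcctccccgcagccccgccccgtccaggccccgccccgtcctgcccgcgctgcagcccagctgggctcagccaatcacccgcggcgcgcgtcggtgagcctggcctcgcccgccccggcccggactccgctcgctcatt
Plin2: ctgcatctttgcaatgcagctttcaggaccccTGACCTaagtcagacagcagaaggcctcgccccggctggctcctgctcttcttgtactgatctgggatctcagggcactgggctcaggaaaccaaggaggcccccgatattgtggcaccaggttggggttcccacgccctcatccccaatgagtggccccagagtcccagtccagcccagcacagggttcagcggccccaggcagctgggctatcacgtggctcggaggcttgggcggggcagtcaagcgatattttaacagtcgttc

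Hadha and Hadhb, the subunits of the mitochondrial trifunctional protein, start in opposite directions on chromosome 5, and 228 bases belong to both windows. The window of Hadha, chr5:30154931-30155230 on the minus strand, is printed with the bases it shares with Hadhb in capitals, because both genes of this head-to-head pair were measured.
Hadha: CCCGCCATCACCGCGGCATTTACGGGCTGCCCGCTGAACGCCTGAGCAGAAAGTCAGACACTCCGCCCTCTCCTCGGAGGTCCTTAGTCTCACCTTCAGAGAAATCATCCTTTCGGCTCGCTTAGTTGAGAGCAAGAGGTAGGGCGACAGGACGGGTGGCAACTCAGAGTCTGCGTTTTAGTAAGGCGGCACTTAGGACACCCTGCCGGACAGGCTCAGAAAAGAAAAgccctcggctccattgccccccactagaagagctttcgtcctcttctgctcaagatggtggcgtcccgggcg

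Ppara encodes the receptor itself. Its signals were 1353, 1425 and 1265 in the wild-type sham kidneys and 703, 901 and 589.7 after ischemia, and 1326, 1532 and 1595 in TLR4 null sham kidneys and 854, 1092 and 656 after ischemia. Every ischemic kidney was below every sham kidney of either genotype. The change was -0.89 ± 0.17 in wild type (adjusted p = 0.00134) and -0.79 ± 0.17 in TLR4 null kidneys (adjusted p = 0.003). All 3 Ppara probe sets past the filter had a change below 0 in both genotypes, from -0.89 to -0.65 in wild type and from -0.79 to -0.38 in TLR4 null kidneys.

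Of the 5 genes listed under the carnitine shuttle, Cpt1a, Cpt2 and Slc25a20 carry long acyl chains across the mitochondrial membranes. The list also holds the peroxisomal Crot and the acetyltransferase Crat. All 5 fell and passed in each genotype, with medians of -0.54 in wild type and -0.78 in TLR4 null kidneys. Among all genes 10.5% and 11.7% were called lower. Cpt2, the acyltransferase of the inner membrane, gave 2339.8, 1904 and 1925 in wild-type sham and 1019.8, 1064 and 986 in wild-type ischemic kidneys. In TLR4 null kidneys it gave 2272, 2792 and 2531 in sham and 1090.1, 1140.4 and 1072 after ischemia. Every ischemic kidney lay far below every sham kidney of either genotype, and the ischemic kidneys varied little among themselves. The change was -0.99 ± 0.10 (adjusted p = 4.15e-06) in wild type and -1.19 ± 0.10 (adjusted p = 7.50e-07) in TLR4 null kidneys. A second Cpt2 probe set with a median signal of 101 went the same way without passing, at -0.07 in wild type (adjusted p = 0.915) and -0.48 in TLR4 null kidneys (adjusted p = 0.338). With the mean of both probe sets the wild-type change of Cpt2 was -0.53 (adjusted p = 0.0404).

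Slc25a20 is the translocase that exchanges acylcarnitine for carnitine across the inner membrane. Its signals were 2195, 2121 and 2198 in wild-type sham, 1394, 1446 and 1540.0 in wild-type ischemic, 2813, 3304 and 3021 in TLR4 null sham and 1399, 1431 and 1398 in TLR4 null ischemic kidneys. The ischemic levels of both genotypes overlapped, whereas each TLR4 null sham kidney lay above each wild-type sham kidney. The change was -0.57 ± 0.08 in wild type (adjusted p = 0.000102) and -1.10 ± 0.08 in TLR4 null kidneys (adjusted p = 1.83e-07). A second Slc25a20 probe set changed by -0.74 ± 0.10 and -0.85 ± 0.10, with less difference between the genotypes. Crot, the peroxisomal carnitine octanoyltransferase, gave 4813, 4501 and 4326 in wild-type sham, 3053, 3292 and 3004 in wild-type ischemic, 5216, 5338 and 4831 in TLR4 null sham and 2813, 2915 and 3187 in TLR4 null ischemic kidneys. Sham and ischemic kidneys did not overlap in either genotype. Its changes were -0.54 ± 0.08 (adjusted p = 0.000166) and -0.78 ± 0.08 (adjusted p = 5.28e-06).

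Cpt1a, the outer-membrane acyltransferase that sets the rate of entry, changed by -0.44 ± 0.08 in wild type (adjusted p = 0.00124) and by -0.62 ± 0.08 in TLR4 null kidneys (adjusted p = 6.15e-05), and its 3 probe sets ranged from -0.79 to -0.27 and from -1.04 to -0.62. Crat, the carnitine acetyltransferase that buffers acetyl-CoA, had the smallest changes of this list, -0.33 ± 0.11 (adjusted p = 0.0386) and -0.42 ± 0.11 (adjusted p = 0.0096). Its wild-type call was lost without wild-type ischemic kidney 1 or 2, any 1 of the 3 wild-type sham kidneys, or TLR4 null sham kidney 3 (adjusted p = 0.0537 to 0.134).

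**Figure D2:**
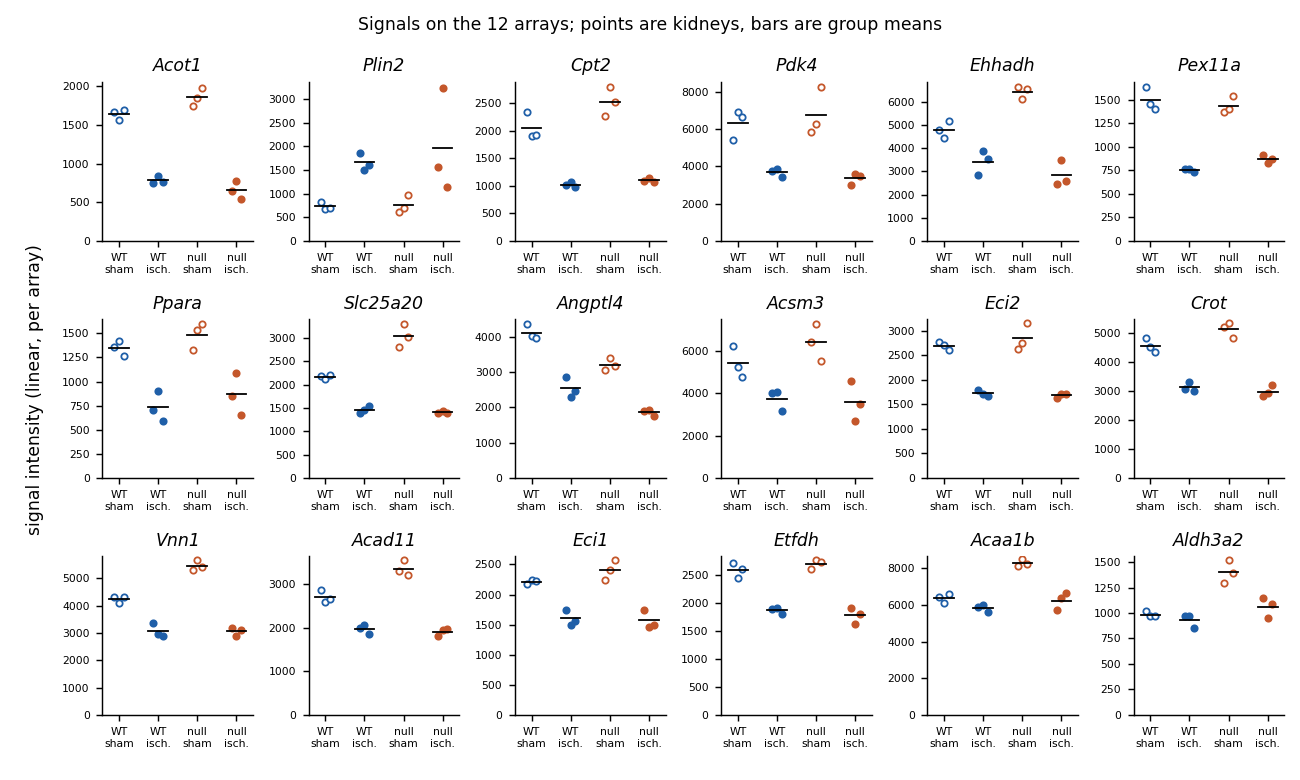
Linear signal intensity on each of the 12 arrays for the 18 genes given array by array, with each point 1 kidney and each bar the mean of 3; open points are sham and filled points ischemic kidneys, blue wild type and orange TLR4 null. Axes start at 0 and differ between genes, whose levels are not comparable; Plin2 is higher after ischemia and the other 17 are lower in mean in both genotypes.

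Both measured genes of acyl-CoA synthesis and hydrolysis fell in each genotype, beside 10.5% of all genes called lower in wild type and 11.7% in TLR4 null kidneys. Acot1, a cytosolic thioesterase that releases free fatty acid from acyl-CoA, had the largest fall of the set. Its signals were 1665, 1566 and 1689.5 in wild-type sham and 748, 843 and 765 in wild-type ischemic kidneys. In TLR4 null kidneys they were 1741, 1852 and 1982 in sham and 649, 769 and 543 after ischemia. The lowest sham kidney was well above the highest ischemic kidney. The changes were -1.05 ± 0.11 (adjusted p = 8.00e-06) in wild type and -1.50 ± 0.11 (adjusted p = 2.78e-07) in TLR4 null kidneys. Acot1 has near-identical neighbours in its family, so that its probe set may also read their transcripts, and the level is uncertain to that extent. Its mitochondrial relative Acot2, outside the set, went the other way, by 0.92 ± 0.13 and 0.60 ± 0.13.

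Acsm3, a mitochondrial synthetase for medium-chain acyl-CoA, gave 6244, 5253 and 4782 in wild-type sham, 4016, 4061 and 3140.3 in wild-type ischemic, 6447, 7267 and 5548 in TLR4 null sham and 4561, 2687 and 3480.2 in TLR4 null ischemic kidneys. Sham and ischemic kidneys did not overlap within a genotype, though they varied widely. It changed by -0.54 ± 0.17 (adjusted p = 0.0331) and -0.87 ± 0.17 (adjusted p = 0.00161). The wild-type call was lost without wild-type ischemic kidney 1 or 3 or wild-type sham kidney 1 or 2 (adjusted p = 0.0503 to 0.14).

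The 5 acyl-CoA dehydrogenases, which take the first step of each round, changed less: 3 passed in wild type, 3 in TLR4 null kidneys and 5 in the mean of both, with medians of -0.28, -0.36 and -0.29. Among all genes 10.5%, 11.7% and 19.4% were called lower in these comparisons. Acad11, a dehydrogenase for long chains found in part in peroxisomes, moved most, from 2856, 2583 and 2661 in wild-type sham to 1982, 2057 and 1865 in wild-type ischemic kidneys. In TLR4 null kidneys it went from 3289, 3547 and 3215 to 1815, 1947 and 1967. The groups were again apart, with the ischemic kidneys of both genotypes at overlapping levels. Its changes were -0.45 ± 0.08 (adjusted p = 0.000638) and -0.81 ± 0.08 (adjusted p = 3.41e-06).

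The classical dehydrogenases are named for the chains they take. Acadvl, for very long chains, fell in wild type (-0.31 ± 0.08, adjusted p = 0.0114, and 0.0662 without wild-type sham kidney 3), and its change of -0.20 ± 0.08 in TLR4 null kidneys did not pass (adjusted p = 0.0872). Acadl, for long chains, fell in both (-0.28 ± 0.07 and -0.36 ± 0.07, adjusted p = 0.01 and 0.0019). Both Acadl calls were lost with the mean of its 2 probe sets (-0.31 and -0.33, adjusted p = 0.0922 and 0.0779). They were also lost at equal medians (adjusted p = 0.292 and 0.0602). Acadm, for medium chains, did not pass in wild type (-0.18 ± 0.09, adjusted p = 0.194) and fell in TLR4 null kidneys (-0.41 ± 0.09, adjusted p = 0.00383). Acads, for short chains, passed in neither, at -0.15 ± 0.12 (adjusted p = 0.402) and -0.32 ± 0.12 (adjusted p = 0.0634). Only the mean of both, -0.24 ± 0.08, was called for it (adjusted p = 0.0374), and leaving out single kidneys ended that call for 6 of the 12 (wild-type ischemic 3, wild-type sham 3, TLR4 null ischemic 1 and 2, and TLR4 null sham 1 and 2, adjusted p = 0.0543 to 0.098). Without TLR4 null ischemic kidney 3 the TLR4 null change of Acads passed, at -0.44 (adjusted p = 0.00974).

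Electrons from these enzymes pass to the flavoprotein Etfa-Etfb and then to its oxidoreductase Etfdh. Etfdh was measured at 2719, 2447 and 2612 in wild-type sham and 1903, 1913 and 1807 in wild-type ischemic kidneys, and at 2609, 2784 and 2747 in TLR4 null sham and 1918, 1631 and 1810.1 in TLR4 null ischemic kidneys. No ischemic kidney reached the lowest sham kidney. The changes were -0.46 ± 0.08 (adjusted p = 0.000714) and -0.60 ± 0.08 (adjusted p = 7.40e-05). Etfa changed by -0.21 ± 0.07 (adjusted p = 0.0515, and 0.0463 without TLR4 null ischemic kidney 3) and -0.30 ± 0.07 (adjusted p = 0.00664). Etfb changed by -0.28 ± 0.08 (adjusted p = 0.0187) and -0.34 ± 0.08 (adjusted p = 0.00569), and its wild-type call was lost without wild-type ischemic kidney 3 or wild-type sham kidney 2 or 3 (adjusted p = 0.0535 to 0.0772).

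Of 5 genes of the later steps of the mitochondrial round, 1 passed in wild type, 4 in TLR4 null kidneys and 5 in the mean of both, where the changes ran from -0.29 to -0.20 by the brightest probe set of each gene. Among all genes 10.5%, 11.7% and 19.4% were called lower in these comparisons. In wild type 19.6% of all genes passed in either direction, a share close to 1 of 5. Other probe sets reached lower values in TLR4 null kidneys for Hadh (range -0.83 to -0.32), Hadhb (-0.55 to -0.28) and Acat1 (-0.53 to -0.28). For Acaa2 the brightest probe set was itself the lowest, in a range of -0.31 to -0.28. Scaling to equal medians ended the 4 TLR4 null calls (adjusted p = 0.103 to 0.172). It also ended the 5 calls in the mean of both (adjusted p = 0.062 to 0.196). Hadha carries the hydratase and long-chain dehydrogenase of the trifunctional protein and Hadhb its thiolase. Hadha changed by -0.13 ± 0.08 (adjusted p = 0.293) in wild type and -0.28 ± 0.08 (adjusted p = 0.024) in TLR4 null kidneys, and Hadhb by -0.31 ± 0.09 (adjusted p = 0.0305) and -0.28 ± 0.09 (adjusted p = 0.0501). By the brightest probe sets this pair had nearly equal estimates in TLR4 null kidneys, and in wild type Hadhb was the lower estimate. The 3 Hadhb probe sets ran from -0.55 to -0.28 in TLR4 null kidneys and from -0.31 to -0.18 in wild type. With their mean the wild-type change of Hadhb was -0.22 (adjusted p = 0.322). The Hadhb call in wild type was lost without wild-type ischemic kidney 2 or 3 or wild-type sham kidney 3 (adjusted p = 0.0794 to 0.158), and it passed in TLR4 null kidneys without TLR4 null sham kidney 1 (adjusted p = 0.0283) or wild-type sham kidney 3 (0.0369). The Hadha call in TLR4 null kidneys was lost without TLR4 null ischemic kidney 2 or TLR4 null sham kidney 2 or 3 (adjusted p = 0.0806 to 0.0934).

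Hadh, the short-chain hydroxyacyl dehydrogenase, changed by -0.16 ± 0.10 (adjusted p = 0.276) and -0.32 ± 0.10 (adjusted p = 0.0252). Acaa2, a mitochondrial thiolase, changed by -0.22 ± 0.08 (adjusted p = 0.0566, and 0.0276 without wild-type ischemic kidney 2) and -0.31 ± 0.08 (adjusted p = 0.00776). Acat1, the acetoacetyl thiolase that also serves ketone bodies, changed by -0.20 ± 0.09 (adjusted p = 0.115, and 0.0415 without wild-type ischemic kidney 2) and -0.28 ± 0.09 (adjusted p = 0.033). With the mean of the Acat1 probe sets the wild-type change passed, at -0.26 (adjusted p = 0.0246). In TLR4 null kidneys the Hadh call was lost without TLR4 null ischemic or sham kidney 1 or 2 (adjusted p = 0.0789 to 0.0931). The Acat1 call was lost there without TLR4 null ischemic kidney 1 or 2 or any 1 of the 3 TLR4 null sham kidneys (adjusted p = 0.055 to 0.123).

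The auxiliary enzymes, which rearrange the double bonds of unsaturated chains so that they can enter the round, fell in 4 of 4 cases in each genotype, with medians of -0.49 and -0.55. Among all genes 10.5% were called lower in wild type and 11.7% in TLR4 null kidneys. Eci2, an enoyl-CoA isomerase of peroxisomes and mitochondria, gave 2771, 2712 and 2607 in wild-type sham, 1799, 1704 and 1675 in wild-type ischemic, 2633, 2751 and 3157 in TLR4 null sham and 1629, 1717 and 1708 in TLR4 null ischemic kidneys. The ischemic kidneys of both genotypes lay close together, below all sham kidneys. Its changes were -0.64 ± 0.08 (adjusted p = 4.52e-05) and -0.75 ± 0.08 (adjusted p = 1.07e-05).

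Eci1, the mitochondrial isomerase, gave 2171, 2236 and 2231 in wild-type sham and 1749, 1496 and 1561 in wild-type ischemic kidneys. The TLR4 null values were 2243, 2407 and 2578 in sham and 1749, 1468 and 1494 after ischemia, again without overlap. It changed by -0.47 ± 0.09 (adjusted p = 0.00182) and -0.61 ± 0.09 (adjusted p = 0.000183). The dienoyl-CoA reductases of mitochondria, Decr1, and of peroxisomes, Decr2, also fell. Decr1 changed by -0.34 ± 0.07 (adjusted p = 0.00288) and -0.40 ± 0.07 (adjusted p = 0.000767), and its second probe set by -0.49 and -0.81. Decr2 changed by -0.52 ± 0.09 (adjusted p = 0.00113) and -0.49 ± 0.09 (adjusted p = 0.00179), nearly the same in both genotypes.

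Of the 7 genes of peroxisomal oxidation, 3 fell in wild type and 6 in TLR4 null kidneys, with medians of -0.36 and -0.56. Among all genes 10.5% and 11.7% were called lower. Ehhadh, the bifunctional hydratase and dehydrogenase of the peroxisome, differed most between the genotypes in estimate. Its signals were 4785, 4446 and 5197 in wild-type sham and 2825, 3879.9 and 3531 in wild-type ischemic kidneys, and 6641, 6144 and 6547 in TLR4 null sham and 2447, 3476 and 2596 in TLR4 null ischemic kidneys. The TLR4 null sham kidneys were the highest of all 12 and the TLR4 null ischemic kidneys overlapped with the wild-type ischemic ones. The change was -0.50 ± 0.13 in wild type (adjusted p = 0.0122), a call lost without wild-type ischemic kidney 1 (0.0681) or wild-type sham kidney 3 (0.0585), and -1.19 ± 0.13 in TLR4 null kidneys (adjusted p = 1.16e-05).

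Pex11a, a membrane protein of peroxisome division, had the opposite order. It went from 1643, 1458 and 1405 in wild-type sham to 766, 765 and 737 in wild-type ischemic kidneys, and from 1367, 1408 and 1548 to 910.3, 834 and 874 in TLR4 null kidneys. Sham and ischemic kidneys were far apart, and each TLR4 null ischemic kidney was above each wild-type ischemic kidney. Its changes were -0.97 ± 0.09 (adjusted p = 1.67e-06) and -0.71 ± 0.09 (adjusted p = 3.25e-05). A second Pex11a probe set gave -1.14 and -1.12, so the order of the genotypes in the first was not seen in the second.

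Acaa1b, a peroxisomal thiolase, was measured at 6416, 6112 and 6614 in wild-type sham, 5879, 6021 and 5608 in wild-type ischemic, 8114, 8507 and 8218 in TLR4 null sham and 5705, 6353 and 6627 in TLR4 null ischemic kidneys. The TLR4 null sham kidneys stood above all others, which overlapped or lay close together. Its change did not pass in wild type (-0.13 ± 0.07, adjusted p = 0.261) and was -0.41 ± 0.07 in TLR4 null kidneys (adjusted p = 0.001). Its near-identical paralog Acaa1a passed in neither genotype (-0.36 ± 0.17 and -0.38 ± 0.17, adjusted p = 0.168 and 0.133), and transcripts of either paralog may bind the other's probes. In TLR4 null kidneys Acaa1a passed without TLR4 null sham kidney 1 (adjusted p = 0.0275), and its call in the mean of both (-0.37 ± 0.12, adjusted p = 0.0286) was lost without any 1 of 6 kidneys, wild-type ischemic 1 or 3, wild-type sham 2, TLR4 null ischemic 1 and TLR4 null sham 2 or 3 (adjusted p = 0.0526 to 0.0799).

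Abcd3, the peroxisomal membrane transporter of long acyl-CoA, fell in both (-0.38 ± 0.08 and -0.56 ± 0.08, adjusted p = 0.00221 and 9.26e-05). Hsd17b4, the bifunctional enzyme for branched chains, changed by -0.29 ± 0.11 (adjusted p = 0.0742, and 0.0106 without wild-type ischemic kidney 3) and -0.63 ± 0.11 (adjusted p = 0.000671), and its second probe set by -0.31 and -0.40. The wild-type change passed with the mean of its probe sets (-0.30, adjusted p = 0.00673). It also passed without probe sets marked as shared between sequences (-0.31, adjusted p = 0.011). Scp2, which encodes sterol carrier protein and a peroxisomal thiolase, changed by -0.17 ± 0.08 (adjusted p = 0.152) and -0.48 ± 0.08 (adjusted p = 0.000458). With the mean of the Scp2 probe sets the wild-type change passed, at -0.32 (adjusted p = 0.015). The TLR4 null call was lost when probe sets marked as shared between sequences were left out (adjusted p = 0.0709). Its 4 probe sets disagreed in TLR4 null kidneys, from -1.21 to 0.05, the only gene of the 17 with several probe sets past the filter whose sign differed there. In wild type the sign agreed in 17 of 17.

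Among the other PPARA targets, Pdk4, the kinase that holds back pyruvate dehydrogenase and so favours fatty acids over glucose, gave 5409, 6930.3 and 6654 in wild-type sham and 3740.3, 3866 and 3454 in wild-type ischemic kidneys. The TLR4 null values were 5837, 6257 and 8259.7 in sham and 3014, 3594 and 3468 after ischemia. The lowest sham kidney was above the highest ischemic kidney in each genotype, and sham kidneys varied more than ischemic ones. The change was -0.77 ± 0.12 (adjusted p = 0.000445) in wild type and -0.999 ± 0.12 (adjusted p = 4.45e-05) in TLR4 null kidneys.

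Vnn1, a pantetheinase of the cell surface, went from 4309.9, 4083 and 4319 to 3359, 2951 and 2889.8 in wild type and from 5299, 5666 and 5428 to 3169.7, 2903 and 3091 in TLR4 null kidneys. The ischemic kidneys of both genotypes overlapped, and the sham kidneys did not. It changed by -0.47 ± 0.08 (adjusted p = 0.000493) and -0.84 ± 0.08 (adjusted p = 2.41e-06). Angptl4, a secreted inhibitor of lipoprotein lipase, was measured at 4368, 4036 and 3966 in wild-type sham, 2860.4, 2280 and 2476 in wild-type ischemic, 3056, 3414 and 3179 in TLR4 null sham and 1909.7, 1932 and 1767 in TLR4 null ischemic kidneys. The 4 groups did not overlap, and the TLR4 null kidneys were the lower ones under each surgery. Its changes after ischemia were -0.70 ± 0.09 (adjusted p = 5.22e-05) and -0.78 ± 0.09 (adjusted p = 2.03e-05).

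Plin2, a coat protein of lipid droplets, was the exception. Its signals were 821, 672 and 688 in wild-type sham and 1861, 1498 and 1614 in wild-type ischemic kidneys, and 619, 704 and 971 in TLR4 null sham and 1558, 3225 and 1137 in TLR4 null ischemic kidneys. All ischemic kidneys were above all sham kidneys, and TLR4 null ischemic kidney 2 stood far above the rest. It rose by 1.17 ± 0.27 (adjusted p = 0.00572) and 1.23 ± 0.27 (adjusted p = 0.00383), with the largest SE of the set. The call held with each of the 12 arrays left out, and without TLR4 null ischemic kidney 2 the TLR4 null rise of Plin2 was 0.81 (adjusted p = 0.00482). Aldh3a2, a dehydrogenase of fatty aldehydes, gave 1015, 966 and 971 in wild-type sham, 975, 968 and 850.4 in wild-type ischemic, 1293, 1522 and 1388 in TLR4 null sham and 1149, 948 and 1084 in TLR4 null ischemic kidneys. The wild-type groups overlapped and the TLR4 null groups did not. It did not pass in wild type (-0.08 ± 0.10, adjusted p = 0.612) and fell in TLR4 null kidneys (-0.40 ± 0.10, adjusted p = 0.00738, and 0.0647 at equal medians).

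Leaving out each array in turn, 19 of the 25 wild-type calls, 30 of the 33 TLR4 null calls and 35 of the 37 calls in the mean of both held every time. The probe sets gave a like count: of the 63 past the filter, 35 were called lower in wild type and 49 in TLR4 null kidneys in a fit of all 30326 probe sets, against 7.91% and 8.23% of all.

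**Figure D3:**
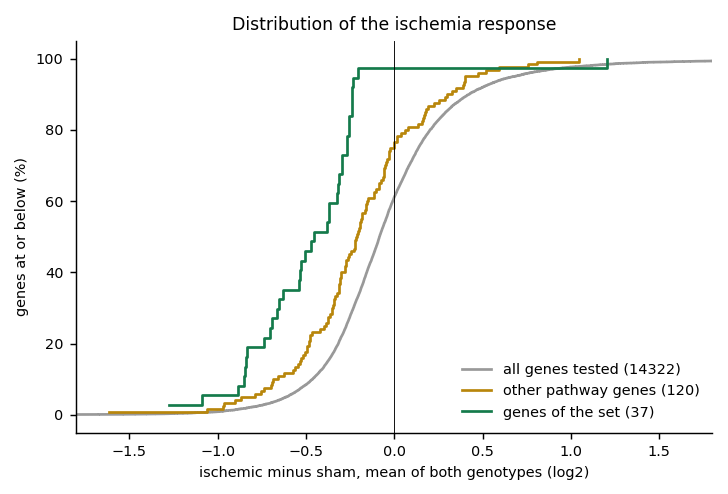
Cumulative share of genes (%) at or below each change after ischemia, averaged over both genotypes (log2 scale), for the 37 genes (green), 120 other pathway genes (ochre) and all 14322 genes tested (grey). The green curve rises steeply below 0, with a median of -0.46 beside -0.21 and -0.08, and its last step is Plin2; genes beyond the axis limits are not drawn.

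The rest of the pathway was followed in 7 lists of 136 genes, of which 120 were tested. In the mean of both genotypes 52 fell and 11 rose, beside 19.4% and 13.7% of all genes. The median was -0.21, beside -0.46 in the set and -0.08 over all genes. In wild type 34 fell and 5 rose, beside 10.5% and 9.17% of all genes. In TLR4 null kidneys 38 fell and 7 rose, beside 11.7% and 9.86%. In the lists that follow, changes are means of both genotypes, and each count is to be read beside 19.4% lower and 13.7% higher. Of 34 other peroxisomal genes 20 fell and 1 rose, and the smallest p-values were those of the membrane proteins Pxmp4 (-0.97 ± 0.08, adjusted p = 1.52e-07) and Pxmp2 (-0.69 ± 0.06, adjusted p = 7.68e-07) and of the nudix hydrolase Nudt19 (-0.74 ± 0.08, adjusted p = 3.37e-06). The 1 that rose, named after its value was seen, was the import receptor Pex5 (0.35 ± 0.10, adjusted p = 0.0175).

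Of 18 partners and coregulators of PPARA, 5 fell and 2 rose, beside 19.4% lower and 13.7% higher among all genes. Lpin1, a phosphatidate phosphatase that also serves as a coactivator, had the largest fall of these lists (-1.61 ± 0.11, adjusted p = 4.46e-08). The nuclear receptor Hnf4a fell (-0.57 ± 0.05, adjusted p = 1.33e-06), whereas the corepressor Nrip1 rose (0.81 ± 0.10, adjusted p = 2.27e-05). The others that passed, named after their values were seen, were the PPARA partner Rxra (-0.53 ± 0.08), the coactivator Ppargc1a (-0.36 ± 0.08) and the receptor Esrrg (-0.30 ± 0.08), which fell, and the deacetylase Sirt1 (0.59 ± 0.08), which rose. Of 16 genes of uptake and activation 2 fell and 2 rose, beside the same shares of all genes. The falls were those of the fatty acid translocase Cd36 (-0.66 ± 0.08) and the carnitine transporter Slc22a5 (-0.52 ± 0.07). The rises were those of the synthetase Acsl5 (0.25 ± 0.06) and, named after its value was seen, the fatty acid binding protein Fabp3 (0.16 ± 0.06, adjusted p = 0.0498). Of 18 other genes of mitochondrial oxidation 9 fell, among them the valine-pathway hydrolase Hibch (-0.49 ± 0.06, adjusted p = 2.03e-05), and 2 rose, both thioesterases, Acot2 (0.76 ± 0.09, adjusted p = 9.86e-06) and Acot9 (0.40 ± 0.06, adjusted p = 0.000141).

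Of 4 ketone body genes 3 fell, the hydroxybutyrate dehydrogenases Bdh1 (-0.69 ± 0.06, adjusted p = 3.36e-07) and Bdh2 (-0.38 ± 0.07, adjusted p = 0.000894) and the acetoacetyl-CoA synthetase Aacs (-1.06 ± 0.12, adjusted p = 7.13e-06). Of 16 further PPARA targets 9 fell and 1 rose, and those with the smallest p were the fatty acid hydroxylase Cyp4a31 (-0.62 ± 0.07), the coenzyme A carrier Slc25a42 (-0.90 ± 0.10) and Tmem135 (-0.38 ± 0.06). The 1 that rose, named after its value was seen, was the acyltransferase Agpat2 (0.39 ± 0.12). Of 14 genes of lipid droplets and lipolysis 4 fell and 3 rose, beside 19.4% and 13.7% of all genes. Hilpda, a droplet protein that inhibits lipolysis, rose with Plin2 (1.05 ± 0.12, adjusted p = 5.60e-06), whereas Plin5, a droplet coat protein of oxidative tissue, fell (-0.97 ± 0.17, adjusted p = 0.000467), as did the triglyceride lipase Pnpla2 (-0.42 ± 0.11, adjusted p = 0.00616). Named after their values were seen, Dgat2 (-0.31 ± 0.08) and Fitm2 (-0.23 ± 0.08) also fell, and the lipase cofactor Abhd5 (0.33 ± 0.09) and the lysosomal lipase Lipa (0.22 ± 0.07) rose.

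Markers of the proximal tubule were read beside these falls. Of 15 markers, all tested, 5 fell and 1 rose in wild type, 5 fell in TLR4 null kidneys and 7 fell in the mean of both. Among all genes 10.5%, 11.7% and 19.4% were called lower in these comparisons. Those 7 were Slc5a12, Lrp2, Cubn, Slc7a13, Slc13a3, Aqp1 and Hnf4a, from -0.63 ± 0.06 for Slc5a12 to -0.23 ± 0.08 for Aqp1, and the rise in wild type was that of Slc6a19 (0.43 ± 0.12). The phosphate transporter Slc34a1 (0.03 ± 0.08, adjusted p = 0.785), Miox (0.06 ± 0.08, adjusted p = 0.58) and Kap (0.02 ± 0.07, adjusted p = 0.868) did not pass in the mean of both. The 15 signals summed to 92936 to 101020 in wild-type sham, 85094 to 104730 in wild-type ischemic, 105450 to 114530 in TLR4 null sham and 91306 to 102370 in TLR4 null ischemic kidneys, so that sham and ischemic sums overlapped in wild type and not in TLR4 null kidneys. Neutrophil markers rose, with S100a8 at 1.21 ± 0.15 (adjusted p = 1.62e-05) and S100a9 at 1.30 ± 0.15 (adjusted p = 9.67e-06), and their sum over 3 tested of 6 went from 348 to 459 in sham to 768 to 1276 in ischemic wild-type kidneys, and from 236 to 329 to 409 to 702 in TLR4 null kidneys. Csf3r, a defining receptor of neutrophils, did not pass (-0.15 ± 0.25, adjusted p = 0.688). Endothelial and macrophage sums were wholly lower after ischemia in each genotype, with endothelial genes at 3488 to 4122 in sham and 2678 to 3305 in ischemic wild-type kidneys. The part of these cell types in the falls was not tested.

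The responses of the 2 genotypes share no array. Across the 37 genes the change in wild type and in TLR4 null kidneys correlated at Pearson's r = 0.904, and at 0.807 over the 36 without Plin2, beside 0.726 over all genes; the genes were read from the same arrays and are not independent. The estimate was lower in TLR4 null kidneys for 31 of 37 genes, beside 48.7% of all genes. It was lower for 27 with quantile normalization and for 33 at equal medians. The test of that difference, the interaction, called 0 of the 37 and 0 of the 14322 genes (0% in limma). At an unadjusted p under 0.05 it held 11 of the 37 genes, 10 of them lower in TLR4 null kidneys and Pex11a higher, and 913 of all genes (6.37%). The smallest p-values among the 37 were those of Slc25a20 (-0.53 ± 0.11, adjusted p = 0.315; -0.11 ± 0.14 in its second probe set, adjusted p = 0.94), Ehhadh (-0.69 ± 0.18, adjusted p = 0.49) and Vnn1 (-0.37 ± 0.11, adjusted p = 0.582). A response that was larger in TLR4 null kidneys was therefore not shown for any single gene.

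**Figure D4:**
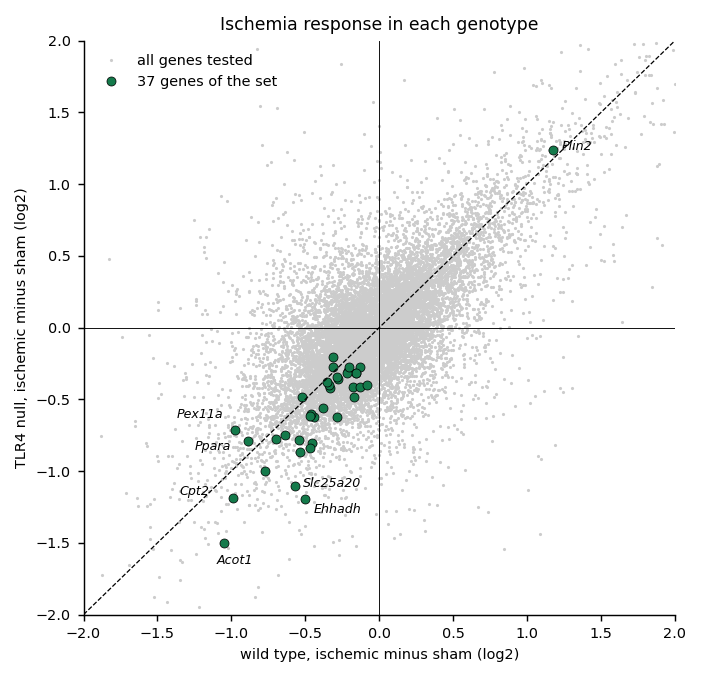
Change after ischemia in wild type (x axis) and TLR4 null kidneys (y axis), both as differences of log2(signal + 15), for the 37 genes (green) and all 14322 genes (grey); the dashed line marks equal change. Of the 37, 31 lie below the line and Plin2 alone lies in the upper right; genes beyond the axis limits are not drawn.

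Within sham kidneys 33 of the 37 genes had the higher mean in TLR4 null animals, beside 48.4% of all genes, and the median difference was 0.12, beside -0.01 over all genes. The 3 TLR4 null signals lay wholly above the 3 wild-type signals for 19 genes, against 8.11% of all, and wholly below for 1, Angptl4, against 8.63%. Of the 37, 3 were called higher and 0 lower (background 0.0908% and 0.223%, or 0.314% in all): Aldh3a2 (0.50 ± 0.10, adjusted p = 0.0429), Slc25a20 (0.48 ± 0.08, adjusted p = 0.0182) and Acaa1b (0.38 ± 0.07, adjusted p = 0.0471), with the signals given above. Scp2 (0.38 ± 0.08, adjusted p = 0.0581) and Vnn1 (0.37 ± 0.08, adjusted p = 0.0596) fell just short. The TLR4 null sham arrays enter this comparison, the TLR4 null response and the interaction alike, so these are not independent of each other.

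None of the 3 calls was firm. That of Slc25a20 was lost without wild-type sham kidney 1 or 2 or TLR4 null sham kidney 2 or 3 (adjusted p = 0.0644 to 0.16). With the mean of its probe sets it was lost too, at 0.31 (adjusted p = 0.122), and its second probe set alone differed by 0.15 ± 0.10 (adjusted p = 0.797). Those of Acaa1b and Aldh3a2 were lost without any 1 of the 6 sham kidneys or wild-type ischemic kidney 1 or 2 (adjusted p = 0.0625 to 0.239 and 0.0537 to 0.234). Scaling to equal medians ended all 3 (adjusted p = 0.142 to 0.233) with differences of 0.42 to 0.54. Markers of the proximal tubule moved with this difference: 13 of 15 had a higher mean in TLR4 null sham kidneys, 6 without overlap, and the carboxylate transporter Slc13a3 was called (0.80 ± 0.13, adjusted p = 0.0182). The Slc13a3 call was not firm either, since 0 of all genes were called higher without wild-type sham kidney 1. The summed signals of the proximal tubule markers did not overlap, as given above. Summed markers of other cell types were wholly lower in TLR4 null than in wild-type sham kidneys: hepatocyte genes (5019 to 10162 against 12052 to 14229), macrophage genes (2276 to 2410 against 2667 to 2856), endothelial genes (3199 to 3369 against 3488 to 4122) and neutrophil genes, as given above. The fat score, the mean log2 signal of 4 of 7 adipocyte markers, was 7.99 to 8.94 in TLR4 null sham and 8.96 to 9.75 in wild-type sham kidneys. The part of these cell types in the result was not tested beyond a fit with the fat score as a covariate, which kept the call of Slc25a20 (0.47, adjusted p = 0.0489) and lost those of Acaa1b (0.34, adjusted p = 0.119) and Aldh3a2 (0.51, adjusted p = 0.0902).

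Within ischemic kidneys the 37 genes showed little difference. The mean was higher in TLR4 null kidneys for 17 genes and lower for 20, with a median of -0.02, beside 0.01 over all genes. Groups were apart for Cpt2, Acadvl and Pex11a, higher in TLR4 null kidneys (7.05% of all genes), and for Acaa2 and Angptl4, lower (7.63%). Angptl4 alone was called, lower in TLR4 null kidneys (-0.43 ± 0.09, adjusted p = 0.0406; background 0.517% lower and 0.140% higher, or 0.656% in all). It stood at -0.36 ± 0.09 in sham kidneys without passing (adjusted p = 0.126). The ischemic call was lost when any 1 array other than wild-type ischemic kidney 2 was left out (adjusted p = 0.0507 to 0.133) and at equal medians (-0.45, adjusted p = 0.191). The fat score ran from 7.30 to 9.67 in TLR4 null ischemic and from 8.20 to 10.4 in wild-type ischemic kidneys, and with it as a covariate the difference was -0.39 (adjusted p = 0.169). Summed markers were wholly lower in TLR4 null than in wild-type ischemic kidneys for hepatocyte genes (4808 to 6641 against 9757 to 13307), endothelial genes (2181 to 2512 against 2678 to 3305), macrophage genes (2061 to 2224 against 2435 to 2505), podocyte genes (1285 to 1479 against 1518 to 1577) and neutrophil genes, as given above. Their part in the result was not tested.

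**Figure D5:**
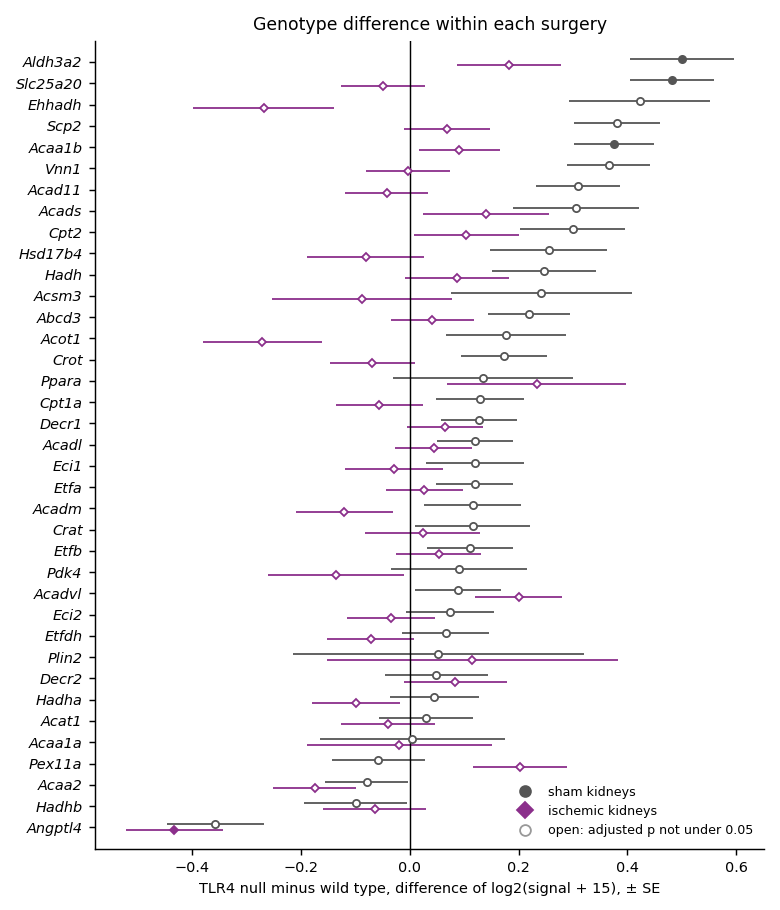
Difference between TLR4 null and wild-type kidneys within sham (grey circles) and within ischemic kidneys (purple diamonds) for the 37 genes, as differences of log2(signal + 15) with SE, 3 kidneys per group. In sham kidneys 33 points lie right of 0 and in ischemic kidneys 17; filled symbols passed an adjusted p of 0.05.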

How the data were processed

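Total RNA of 12 whole kidneys was hybridised to 12 Affymetrix arrays. Each deposited value is a linear signal intensity that the authors computed with MAS5, per the submitters' processing notes; trimmed means over the middle 96% of probe sets lay between 248.6 and 248.8 on all arrays. From these, log2(signal + 15) was taken without further scaling. Control probe sets (64) were removed. Probe sets above the array's 40th percentile on at least 3 of 12 arrays were kept (30326), and the brightest probe set stood for each gene (14322).

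limma 3.58.1 (R 4.3.3; lmFit, eBayes with trend, 8 residual degrees of freedom) fitted all 4 groups, with Benjamini-Hochberg adjustment over all genes and a threshold of 0.05; it was tested on simulated data. The same fit was run on all probe sets. The platform annotation named 1 gene for 34945 probe sets, several for 932 and none for 9160. Members and lists were chosen with earlier results of these data known. Genes given array by array were those called after ischemia in both genotypes with a mean change of at least 0.5, at most 16 by size, plus those called between genotypes; the others are given by change and adjusted p. In the 7 other pathway lists, the 3 with the smallest p were named.

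Marker lists were read as well. In the mean of both genotypes 4 of 7 tested thick ascending limb and distal tubule genes fell, 4 of 8 collecting duct, 5 of 7 endothelial, 3 of 7 macrophage genes with 1 rising, and 1 of 4 podocyte genes with 1 rising; 0 of 3 skeletal muscle genes passed, and 1 of 4 hepatocyte and 1 of 4 adrenal genes rose. Of 4 adipocyte genes 0 passed. Among all genes 19.4% were called lower and 13.7% higher in that comparison. Scaling, filter, pseudocount, probe-set choice, trend, array weights, a replicate block, a fat covariate and each array left out were tried as alternatives.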

Additional observations from a re-analysis of the deposited data

How the results depend on the processing

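No estimate of a called gene changed direction under any alternative tried. Outside the arrays left out, called falls ranged from 13 to 30 of the 37 genes in wild type, 23 to 34 in TLR4 null kidneys and 26 to 36 in the mean of both, and 14, 23 and 27 calls held under each of those in which the gene was tested (without shared-sequence probe sets 35 of the 37 were, Angptl4 and Acaa1a having no other past the filter); the lowest wild-type count, 13, came from scaling to equal medians, and the cause was not tested. The share of all genes called lower moved over the same alternatives. It ran from 4.65% to 14.6% in wild type, 7.21% to 16% in TLR4 null kidneys and 12.2% to 25.2% in the mean of both. The lower ends came at equal medians and the upper ends with the filter at the 60th percentile. The sham genotype comparison called 45 genes, and 20 at equal medians, 4 without the trend, 160 with array weights and 81 with the arrays of its 2 groups alone. Its 3 higher members became 0 at equal medians and without the trend, 5 with array weights (with 1 lower), 1 with the fat covariate and 5 with its own arrays alone. The ischemic genotype comparison called 94 genes, and 47 without a filter, 20 without the trend, 164 with array weights, 14 with the fat covariate and 17 with its own arrays. Its 1 lower member became 0 at equal medians, without a filter, without the trend, with the fat covariate and with its own arrays; the count was also 0 without shared-sequence probe sets, where Angptl4 was not tested, so that this is no lost call. The cause was not tested.

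With each array left out, wild-type calls ranged from 2062 to 3089 genes (19 to 25 members lower), TLR4 null from 2390 to 3059 (29 to 33), and the mean of both from 4172 to 4816 (34 to 36). Sham genotype calls ranged from 2 to 61 genes (0 to 3 members higher) and ischemic ones from 10, without wild-type ischemic kidney 3, to 245, without TLR4 null ischemic kidney 3 (0 to 1 member lower). The interaction called 0 to 15 genes, 15 without TLR4 null ischemic kidney 3, and 0 members.

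Replicate numbers showed no sign of pairing: deviations of same-numbered arrays correlated at -0.06 to 0.10, beside -0.13 to 0.14 for different numbers. With so few arrays per group this cannot exclude a pairing. With the replicate number as a block the wild-type count was 2723 genes with 24 members lower, the TLR4 null count 2923 with 33, the mean of both 4617 with 35 and the interaction 0. The sham comparison gave 33 genes with 1 member higher and the ischemic comparison 61 with 0 members lower. With 3 arrays per group the number of arrays limits the precision.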

Other observations

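Probe sets whose annotation names 2 genes were outside the set. That for Acot2 and Acot1 changed by -0.79 in wild type and -0.93 in TLR4 null kidneys, whereas the single-gene probe set of Acot2 was higher after ischemia. The probe sets for Acaa1b and Acaa1a changed by -0.08 and -0.10 in wild type and by -0.52 and -0.45 in TLR4 null kidneys.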
